A study of Mus musculus with 6 samples.

Results

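The Wnt ligands, their Frizzled, LRP and Ror receptors, the ligand acyltransferase gene Porcn and the secreted modulators of the pathway were read across wild-type and Cldn18 knockout mouse stomach. Members were taken by gene symbol, and no measured value entered the rule. Earlier results of these data were known when the rule was chosen. It took each symbol made of Wnt, Fzd, Sfrp, Rspo, Dkk or Ror, a number and at most a letter a or b. Lrp5, Lrp6, Wif1, Frzb and Porcn were taken as well. This gave 48 genes of 38720 rows: 19 ligands, 1 acyltransferase, 10 Frizzled receptors, 2 LRP co-receptors, 2 Ror receptors, 4 R-spondins and 10 secreted inhibitors. Claudin 18, the deleted protein, is a tight junction component of the stomach lining. There were 3 libraries labelled wild-type (CLDN18+/+) and 3 labelled as lacking the gene (CLDN18-/-), all of the B6:129S5 strain, with no other allele or treatment named for either group. The sample labels give an age of 7 weeks and the design text an age of 7 days, so the age cannot be settled here. The neck of the corpus gland was cut from unfixed frozen sections by laser capture microdissection, in which a laser frees a chosen area of tissue. The labels do not state how many animals or sections stand behind a library, so the p-values cover the spread between libraries, and that spread may be technical.

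Wnt proteins are secreted glycoproteins that carry a lipid put on by Porcupine, the product of Porcn, and leave the cell with the carrier Wls. In the canonical branch a Wnt binds a Frizzled receptor together with LRP5 or LRP6, and beta-catenin is then spared from breakdown and acts with TCF/LEF factors on target genes. In the other branches Wnt5a and Wnt11 act through Frizzled and the tyrosine kinase-like receptors Ror1 and Ror2 on cell shape and polarity. R-spondins keep Frizzled and LRP proteins at the surface, while the SFRP proteins, Frzb and Wif1 bind Wnts outside the cell and several Dickkopf proteins bind LRP5 and LRP6. In the digestive tract many of these ligands and inhibitors are made by stromal cells under the epithelium, and Wnt signalling is known for its part in the upkeep of epithelial stem cells.

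The libraries held 37673283 to 52842813 reads on genes, of which 38.6% to 45.4% fell on the locus Gm26924. Cldn18 itself stood at 30498, 21210 and 23241 normalized counts in wild-type replicates 1, 2 and 3 and at 13035, 16798 and 15818 in the knockout. It was lower (log2 difference -0.71 ± 0.20 SE, limma adjusted p = 0.0134), but leaving out knockout replicate 1 ended the call (adjusted p = 0.0882). Which exons were deleted was not known here, and reads over the whole gene check the labels by direction alone. Marker genes of mucous neck cells, the labelled region, summed to 76429 to 98888 in wild-type and 88208 to 184553 in the knockout. These sums overlapped, with 2 of 4 genes higher, 1 lower and 1 not called. Parietal cell markers, acid-secreting cells next to the neck, summed to 410724 to 534689 in wild-type and 3629 to 10770 in the knockout, with 8 of 9 lower and Hdc not called. Chief cell markers, of the enzyme-secreting cells, summed to 1815277 to 3011664 and 39965 to 74362, with 6 of 7 lower and Cpb1 not called. Surface pit cell markers summed to 882458 to 1496345 and 336863 to 583200, with 3 of 6 lower (Gkn1, Gkn2 and Psca) and 1 higher (Krt20). Macrophage markers summed to 2224 to 3232 and 4083 to 7918, with 3 of 7 higher (C1qa, C1qb and Lyz2). Smooth muscle markers overlapped in sum, at 11039 to 15690 and 9770 to 11282, with 4 of 8 lower (Acta2, Myh11, Actg2 and Synm). In these bulk samples fewer cells of a type and less RNA per cell cannot be told apart. The part of these shifts in the Wnt gene results was not tested.

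Of the 48 genes, 33 reached a normalized count of 10 in 3 or more libraries and were tested, and 15 were too low. The normalized count is the number of reads on a gene divided by a size factor for its library. Of the 33, 9 were higher in the knockout, 6 were lower and 18 were not called (limma on log2(normalized count + 1), called at an adjusted p under 0.05). The called share was 45.5%, against 44.7% of all 17432 genes tested. By direction, 27.3% of the 33 were higher and 18.2% lower, against 23.3% and 21.5% of all genes. The Wnt genes were thus called about as often as genes in general. Their median log2 difference was -0.15, against -0.02 over all genes. The knockout values lay wholly above the wild-type values for 10 genes and wholly below for 9, together 57.6%. Over all genes tested 28.1% lay above and 27.1% below, together 55.2%. Of the 15 called genes 14 differed by at least 2-fold, Wnt2b being the exception. The matching share of all called genes was not computed, so this count is not read as particular to the Wnt genes. Sfrp2 and Wnt3 passed the filter on the wild-type libraries alone, so they had to be lower.

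**Figure D1:**
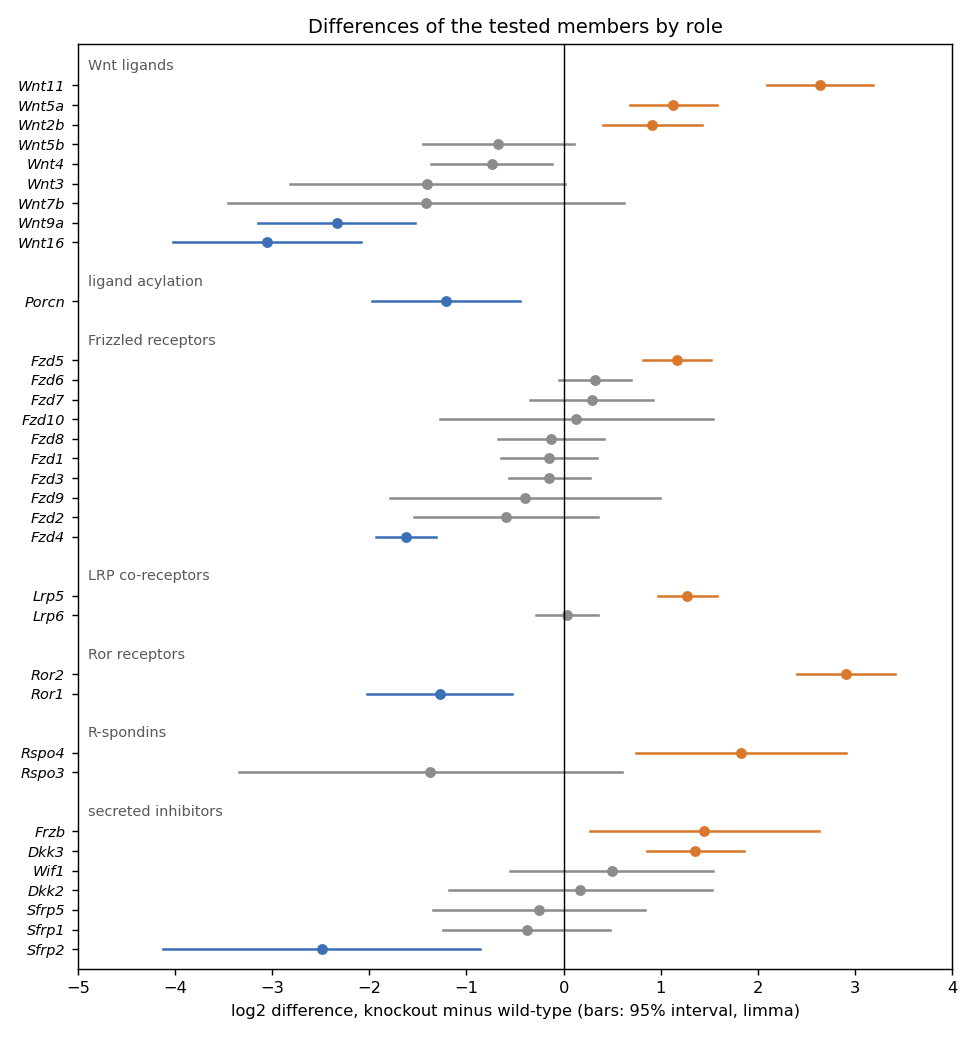
Log2 differences (knockout minus wild-type) of the 33 tested Wnt genes, grouped by role, with 95% confidence intervals from limma, orange where called higher, blue where called lower and grey where not called. Ror2 and Wnt11 lie farthest to the right, at 2.91 and 2.64, and Wnt16 farthest to the left, at -3.05, while Lrp6 sits at 0.04.

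The start-site windows of the ligand and receptor genes with large shifts are shown because they are the stretches from which those genes are transcribed, 2 of genes that were higher (Wnt11, Ror2) and 2 of genes that were lower (Wnt16, Wnt9a). Each runs from 250 bases before to 50 bases after a RefSeq start, 5′ to 3′ on the gene's strand, on GRCm38.p6 (mm10). The Wnt11 window at its upstream start is chr7:98834862-98835161 on the plus strand, that of Ror2 is chr13:53286075-53286374 on the minus strand, that of Wnt16 is chr6:22287977-22288276 on the plus strand and that of Wnt9a is chr11:59306680-59306979 on the plus strand. Capitals mark matches, on either strand, to the TCF/LEF core CTTTGAT, the AP-1 motif TGANTCA or the TATA box TATAAA.
Wnt11: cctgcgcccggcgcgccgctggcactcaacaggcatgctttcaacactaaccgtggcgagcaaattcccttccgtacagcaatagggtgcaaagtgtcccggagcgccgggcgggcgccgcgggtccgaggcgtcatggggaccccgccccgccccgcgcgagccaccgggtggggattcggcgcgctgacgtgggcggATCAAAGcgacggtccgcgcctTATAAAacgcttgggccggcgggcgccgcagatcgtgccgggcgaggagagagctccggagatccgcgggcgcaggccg
Ror2: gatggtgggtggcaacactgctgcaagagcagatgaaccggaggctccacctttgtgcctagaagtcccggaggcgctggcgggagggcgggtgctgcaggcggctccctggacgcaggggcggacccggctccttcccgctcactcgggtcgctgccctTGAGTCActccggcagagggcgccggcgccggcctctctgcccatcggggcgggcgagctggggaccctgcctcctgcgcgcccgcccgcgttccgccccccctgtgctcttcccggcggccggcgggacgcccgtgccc
Wnt16: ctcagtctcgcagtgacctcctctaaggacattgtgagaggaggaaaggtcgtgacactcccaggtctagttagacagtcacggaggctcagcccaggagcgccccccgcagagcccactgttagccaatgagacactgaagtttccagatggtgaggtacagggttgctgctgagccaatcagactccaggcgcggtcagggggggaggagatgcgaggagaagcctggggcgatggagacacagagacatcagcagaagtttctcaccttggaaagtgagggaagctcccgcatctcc
Wnt9a: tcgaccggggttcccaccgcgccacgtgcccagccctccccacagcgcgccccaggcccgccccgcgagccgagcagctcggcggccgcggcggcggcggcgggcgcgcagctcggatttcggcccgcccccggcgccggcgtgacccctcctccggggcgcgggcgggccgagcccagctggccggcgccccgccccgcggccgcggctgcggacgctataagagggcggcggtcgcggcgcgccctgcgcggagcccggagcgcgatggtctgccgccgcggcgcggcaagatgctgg
In Wnt11 the TCF/LEF letters begin 51 bases before the start and the TATA letters 29 bases before it. A GC box, GGGCGG, ends at the base before the TCF/LEF letters and is not capitalised. In Ror2 the AP-1 letters begin 90 bases before the start. Neither Wnt16 nor Wnt9a holds any of these 3 motifs in the window. RefSeq gave 34 such windows for 31 of the 48 genes. The TCF/LEF core was in 2 of the 34, against 3.73% of 32851 windows over all genes, and the AP-1 motif in 2, against 7.81%. Each of these 2 motifs was in 1 of 7 windows of genes that were higher, 0 of 5 lower and 1 of 12 not called. The matches among genes not called were both in windows of Wnt5b. The downstream Wnt11 window held neither motif. The TATA box was in 5, against 13.6%. The GC box was in 26 of 34, against 35.7% of all windows, and its counts by call were 7 of 7 windows of genes that were higher, 3 of 5 lower, 10 of 12 not called and 6 of 10 too low to test. The median number of CG dinucleotides was 26.5 in the Wnt gene windows and 7 over all windows. Wnt16 held 10, Ror2 32, Wnt11 45 and Wnt9a 58. A match is a description of the letters and not a binding site.

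Among the ligands, Wnt11, Wnt5a and Wnt2b were higher in the knockout, and Wnt16 and Wnt9a were lower. Wnt11 (ENSMUSG00000015957.12, chromosome 7, 98835112 to 98855195, plus strand, mm10), a ligand known for cell movement and polarity, stood at 83.2, 102 and 111 normalized counts in wild-type replicates 1, 2 and 3 and at 696, 448 and 755 in the knockout. Every knockout library was more than 4-fold above the highest wild-type library. The ratio of group means was 6.41, and the log2 difference was 2.64 ± 0.25 (SE; limma adjusted p = 1.93e-05).

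Wnt5a, the main ligand of the Ror receptors, stood at 663, 433 and 471 in wild-type and at 1011, 1007 and 1400 in the knockout. The lowest knockout library was above the highest wild-type library. Wnt5a rose by 1.13 ± 0.20 on the log2 scale (SE; adjusted p = 0.00124), a ratio of means of 2.18. Wnt2b, a canonical ligand of stromal cells, stood at 217, 252 and 173 in wild-type and at 311, 437 and 466 in the knockout. The groups did not overlap, and the rise of 0.91 ± 0.23 (log2 difference ± SE; adjusted p = 0.00817) was below 2-fold.

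Wnt16 (chromosome 6, 22288227 to 22298522, plus strand), a ligand best known from bone and joint tissue, stood at 133, 76.6 and 135 in wild-type and at 10.4, 10.3 and 18.3 in the knockout. The knockout kept 11.3% of the wild-type mean, and the log2 difference was -3.05 ± 0.44 (SE; adjusted p = 0.000305). Wnt9a (chromosome 11, 59306928 to 59333552, plus strand), a ligand of the canonical branch, stood at 97.9, 177 and 112 in wild-type and at 26.4, 20.7 and 25.0 in the knockout. Its 3 knockout values lay close together and far below every wild-type value, at 18.7% of the mean (log2 difference -2.33 ± 0.37 SE; adjusted p = 0.00055).

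The other tested ligands were not called. Wnt4, a ligand with roles in kidney and gonad development, stood at 338, 256 and 243 in wild-type and at 175, 113 and 226 in the knockout. Its groups did not overlap, yet it narrowly missed the threshold (log2 difference -0.74 ± 0.28 SE, 95% interval -1.36 to -0.12; adjusted p = 0.0525). It was called without Cldn18 knockout replicate 3 (adjusted p = 0.0284). Wnt5b, the close relative of Wnt5a, stood at 105, 70.4 and 64.1 in wild-type and at 40.6, 47.3 and 59.6 in the knockout (log2 difference -0.67 ± 0.35 SE; adjusted p = 0.146). Wnt3, a canonical ligand, was at 15.9, 29.6 and 11.7 in wild-type and at 6.61, 5.91 and 5.77 in the knockout, on 6 to 24 reads a library (log2 difference -1.40 ± 0.64 SE, 95% interval -2.82 to 0.02). With no mean trend in limma it was called lower (adjusted p = 0.0214), a direction that the filter had fixed. Wnt7b, a ligand of epithelial cells, was at 4.90, 100 and 35.9 in wild-type and at 11.3, 5.91 and 12.5 in the knockout, so the wild-type libraries spread over the knockout range. It was not called (log2 difference -1.42 ± 0.92 SE; adjusted p = 0.238) and was called lower without wild-type replicate 1 (log2 difference -2.54; adjusted p = 0.00844).

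The other 10 ligands were too low to test: Wnt1, Wnt2, Wnt3a, Wnt6, Wnt7a, Wnt8a, Wnt8b, Wnt9b, Wnt10a and Wnt10b. Wnt6 was the most read of these, at 9.79, 106 and 62.1 in wild-type and at 4.72, 7.39 and 3.84 in the knockout, from 158 and 19 reads in all. Its level in wild-type replicate 1 was close to the knockout, while replicates 2 and 3 stood well above. With no filter on low values it was called lower (log2 difference -2.77; adjusted p = 0.0239).

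**Figure D2:**
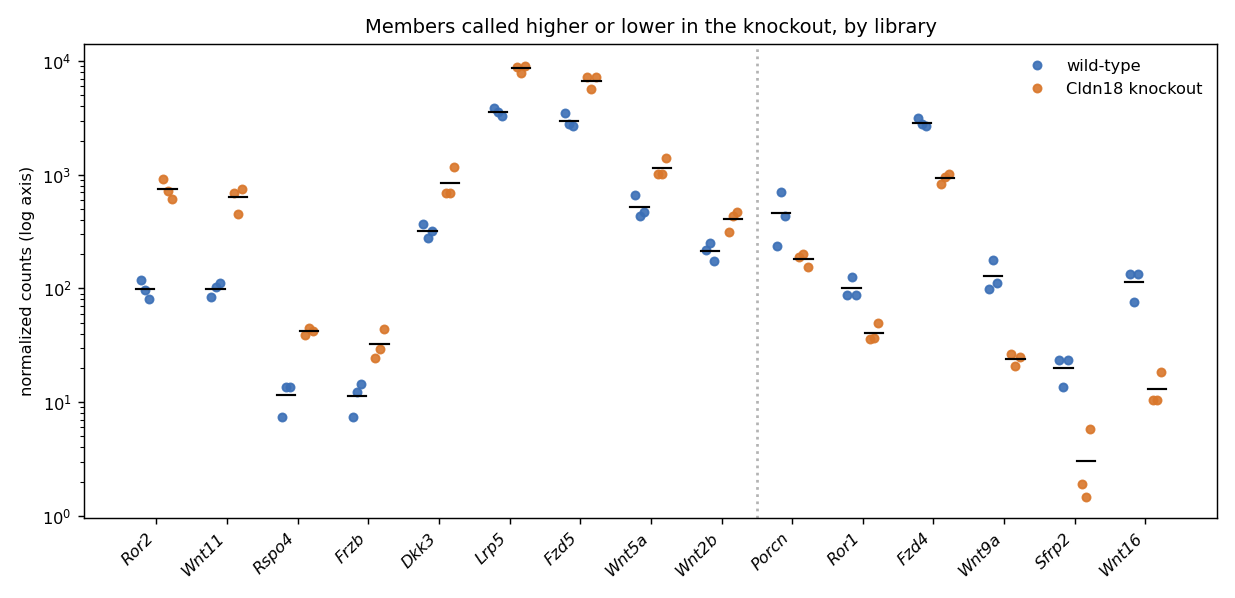
Normalized counts (log axis) of the 15 called Wnt genes in the 3 wild-type and 3 knockout libraries, each point a library and each bar a group mean. The knockout points of Wnt11 lie between 448 and 755 and those of Wnt16 between 10.3 and 18.3, apart from their wild-type points in both genes.

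Levels can be compared between genes only per length, here as normalized counts divided by kilobases of exon. Summed over the 19 ligands, the level per kilobase was 337 to 399 in wild-type and 416 to 573 in the knockout. Wnt5a and Wnt4 led the ligands in wild-type, at 66.8 ± 15.8 and 66.5 ± 12.3 per kilobase (SD, n = 3), less apart than their spread. Wnt2b followed at 50.9 ± 9.4, then Wnt9a at 38.7 ± 12.6 and Wnt5b at 30.1 ± 8.4. Wnt6 was at 27.1 ± 22.0 with a wide spread, Wnt16 at 26.4 ± 7.6 and Wnt11 at 23.9 ± 3.4. The gap from Wnt4 to Wnt2b was larger than either SD, and from Wnt2b downward each gap between neighbours was smaller than the larger SD of the pair. In the knockout Wnt11 led with Wnt5a, at 153 ± 39 and 146 ± 29 per kilobase, again less apart than their spread, and Wnt2b came next at 96.3 ± 19.6. Wnt11 made up 6.5% ± 1.3 of the summed ligand level per kilobase in wild-type against 31.6% ± 5.4 in knockout libraries (SD, n = 3). The share of Wnt5a went from 18.1% ± 4.4 to 30.2% ± 1.6. The share of Wnt4 was 18.0% ± 3.2 and then 8.3% ± 1.6. The ratio of Wnt11 to Wnt5a per kilobase was 0.237 to 0.447 in wild-type and 0.841 to 1.30 in the knockout.

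**Figure D3:**
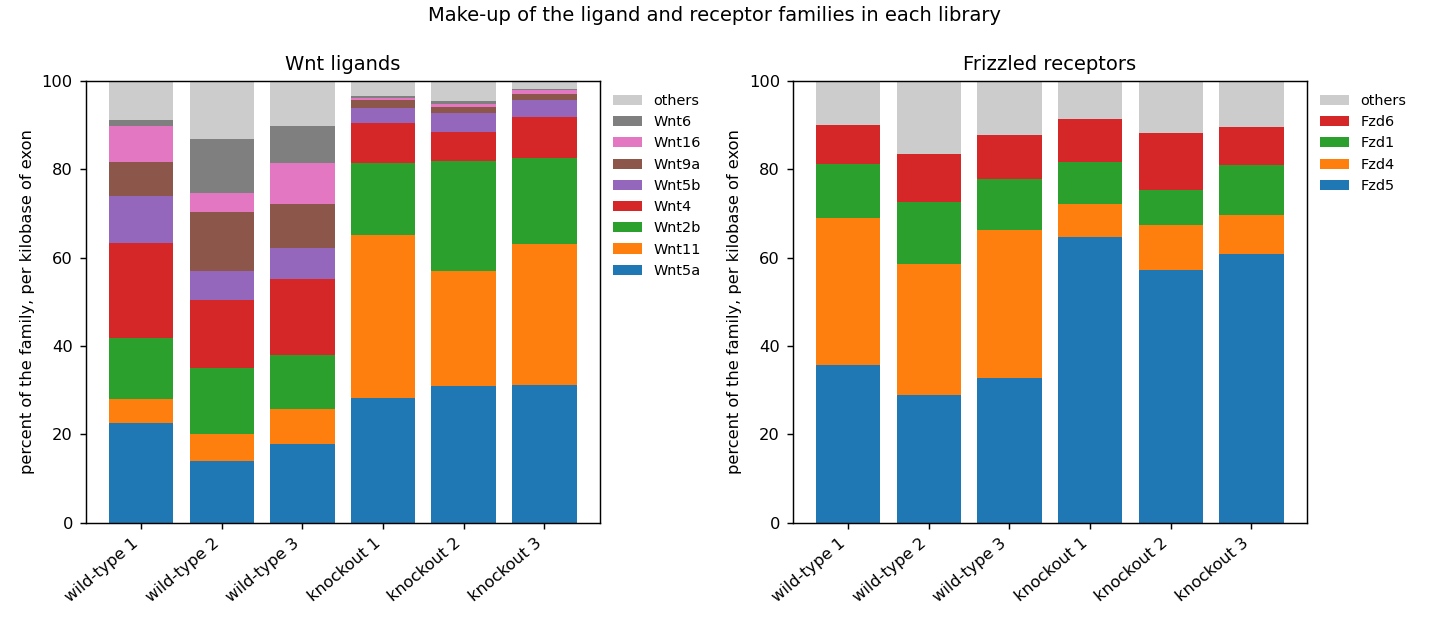
Share of the summed level per kilobase of exon (percent) taken by each named gene among the Wnt ligands (left) and the Frizzled receptors (right), in each of the 6 libraries, with the remaining genes in light grey. Fzd5 and Fzd4 take about equal shares in wild-type, 32.4% and 32.1% on average, and 60.9% and 8.8% in the knockout.

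Fibroblast markers are given beside the stromal ligands. Of 12 tested, 4 were higher (Pdgfra, Dcn, Lum and Foxl1), 1 was lower (Fbln1) and 7 were not called, and their summed level was 30302 to 49099 in wild-type and 33683 to 57758 in the knockout. Foxl1, which marks stromal cells under the gut epithelium, stood at 88.1, 69.2 and 41.8 in wild-type and at 182, 174 and 313 in the knockout (log2 difference 1.74 ± 0.35 SE; adjusted p = 0.0024). None of the 12 was at 0 in all libraries. The part of fibroblasts in the ligand levels was not tested.

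Porcn, whose product puts the lipid on Wnt proteins, was lower in the knockout. It stood at 237, 711 and 436 in wild-type and at 191, 202 and 153 in the knockout. The groups did not overlap, although wild-type replicate 1 lay near the knockout libraries and replicate 2 far above. The log2 difference was -1.21 ± 0.34 (SE; adjusted p = 0.0148). The call did not hold without wild-type replicate 3 (adjusted p = 0.0586) or without knockout replicate 3 (adjusted p = 0.0564). With wild-type replicate 1 alone against the knockout, the difference was -0.39 (adjusted p = 0.328).

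Of the 10 Frizzled receptors, 1 was higher, 1 was lower and 8 were not called. Fzd5 (ENSMUSG00000045005.9, chromosome 1, 64730558 to 64737751, minus strand), a receptor of gut epithelium, stood at 3489, 2812 and 2678 in wild-type and at 7284, 5675 and 7190 in the knockout. It rose by 1.17 ± 0.16 on the log2 scale (SE; adjusted p = 0.000228), a ratio of means of 2.24. Fzd4 (ENSMUSG00000049791.4, chromosome 7, 89404355 to 89413134, plus strand), which in blood vessels also binds Norrin, stood at 3156, 2806 and 2663 in wild-type and at 829, 964 and 1013 in the knockout. It fell by 1.62 on the log2 scale (SE 0.14; adjusted p = 1.21e-05), to 32.5% of the wild-type mean. The knockout range of each gene lay clear of its wild-type range, and the 2 genes moved in opposite directions.

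Per kilobase, Fzd5 and Fzd4 were at similar levels in wild-type, at 433 ± 63 and 428 ± 38 (SD, n = 3), and their ratio was 0.974 to 1.07 in the 3 libraries. In the knockout they stood at 971 ± 131 and 139 ± 14, a ratio of 5.72 to 8.54. The summed Frizzled level was 1181 to 1414 per kilobase in wild-type and 1433 to 1712 in the knockout. Endothelial markers are given beside Fzd4. Of 8 tested, 7 were lower and 1 was not called (Vwf), with a summed level of 4731 to 7441 in wild-type and 1961 to 2558 in the knockout. Among these Kdr, a VEGF receptor gene, stood at 2075, 1408 and 1234 in wild-type and at 445, 441 and 523 in the knockout. None of the 8 was at 0 in all libraries, and their part in the Fzd4 result was not tested.

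Fzd1, next in level in wild-type and below Fzd6 in the knockout, stood at 732, 842 and 565 in wild-type and at 650, 479 and 826 in the knockout, with overlapping groups (log2 difference -0.15 ± 0.22 SE, 95% interval -0.64 to 0.35; adjusted p = 0.626). Fzd6, a receptor known for planar polarity, stood at 603, 727 and 565 in wild-type and at 771, 896 and 701 in the knockout (0.32 ± 0.17 SE, 95% interval -0.05 to 0.69; adjusted p = 0.144). For both genes the interval leaves out a 2-fold change. Fzd3 also gave a narrow interval, -0.56 to 0.27. Fzd7, a receptor of gastric and intestinal stem cells, stood at 218, 442 and 223 in wild-type and at 283, 341 and 406 in the knockout (adjusted p = 0.443). Without wild-type replicate 2 it was called higher (log2 difference 0.62; adjusted p = 0.0426). Fzd2 was at 73.8 to 207 in wild-type and 49.1 to 87.9 in the knockout, and Fzd8 at 142 to 226 and 149 to 182. Fzd9 was at 14.7 to 46.9 and 8.87 to 26.9, and Fzd10 at 7.41 to 12.2 and 7.56 to 14.8. None of these 4 was called, with adjusted p from 0.288 for Fzd2 to 0.886 for Fzd10.

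The LRP co-receptors parted in the knockout. Lrp5 (ENSMUSG00000024913.16, chromosome 19, 3584828 to 3686564, minus strand) stood at 3900, 3550 and 3282 in wild-type and at 8876, 7890 and 9137 in the knockout. All knockout libraries were more than 2-fold above the highest wild-type library. It rose by 1.27 ± 0.14 on the log2 scale (SE; adjusted p = 5.00e-05). Lrp6 stood at 5623, 4723 and 4312 in wild-type and at 4898, 4673 and 5392 in the knockout, within the wild-type range. Its log2 difference was 0.04 ± 0.15 (SE, 95% interval -0.29 to 0.36; adjusted p = 0.862). Per kilobase the ratio of Lrp5 to Lrp6 was 0.974 to 1.07 in wild-type and 2.37 to 2.54 in the knockout, and the summed level of both was 652 to 812 and 1152 to 1333. Depth does not limit this comparison, since each library held at least 2875 reads on Lrp5 and 3825 on Lrp6.

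The Ror receptors changed in opposite directions, Ror2 with the largest rise of the 33 tested genes. Ror2 (ENSMUSG00000021464.14, chromosome 13, 53109312 to 53286124, minus strand) stood at 119, 97.6 and 80.6 in wild-type and at 909, 724 and 616 in the knockout. The lowest knockout library was more than 5-fold above the highest wild-type library. The ratio of means was 7.58 and the log2 difference 2.91 ± 0.23 (SE; adjusted p = 6.29e-06). Ror1 stood at 88.1, 126 and 88.4 in wild-type and at 35.9, 36.9 and 49.98 in the knockout. The knockout kept 40.6% of its wild-type mean (log2 difference -1.28 ± 0.34 SE; adjusted p = 0.0103). Against wild-type replicate 1 alone the Ror1 difference was -1.10 (adjusted p = 0.0910). Ror2 took 57.1% ± 6.9 of the summed Ror level per kilobase in wild-type against 96.0% ± 1.4 in knockout libraries (SD, n = 3), and the ratio of Ror2 to Ror1 was 1.05 to 1.83 and 16.7 to 34.4. Per kilobase Ror2 ranked 22 of the 48 genes in wild-type and 6 in the knockout. Wnt5a and Wnt11, ligands of the same branch, were higher as well. Ryk, another Wnt receptor of that branch, had a smaller rise of 0.47 ± 0.13 (log2 difference ± SE; limma adjusted p = 0.0161). Wnt5b, the close relative of Wnt5a, was not called (log2 difference -0.67). The polarity genes went both ways, with Celsr1 and Prickle1 lower and Vangl1 higher. The Ryk call was lost when any 1 of 4 libraries was left out, namely wild-type replicate 3 or any knockout replicate (adjusted p = 0.0509 to 0.0611 in these cases).

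Of the 4 R-spondins, which strengthen Wnt signalling through Lgr receptors, 2 were tested and all were low. Rspo4 stood at 7.34, 13.6 and 13.6 in wild-type and at 38.7, 45.1 and 42.3 in the knockout. Its knockout libraries lay close together and clear of the wild-type (log2 difference 1.83 ± 0.49 SE; adjusted p = 0.011). Rspo3, a stromal R-spondin of the gastric gland, stood at 12.2, 7.41 and 28.2 in wild-type and at 5.67, 13.3 and 0.961 in the knockout. Its groups overlapped (log2 difference -1.37 ± 0.89 SE; adjusted p = 0.239), and it rested on 1 to 29 reads a library, with a 95% interval of -3.35 to 0.60. Rspo1 and Rspo2 were too low to test. Rspo1 stood at 4.90, 59.3 and 21.4 in wild-type and at 0, 1.48 and 0 in the knockout, from 74 and 2 reads in all, so it was read in each wild-type library and in 1 knockout library. With no filter on low values it was called lower (log2 difference -3.88; adjusted p = 0.00919). Summed over the 4 genes the level was 10.5 to 40.2 per kilobase in wild-type and 19.3 to 26.0 in the knockout.

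Of the 10 secreted inhibitors, 7 were tested, and 2 were higher (Dkk3 and Frzb), 1 was lower (Sfrp2) and 4 were not called. Dkk3, a Dickkopf relative whose action on the Wnt pathway differs between tissues, stood at 370, 280 and 318 in wild-type and at 685, 697 and 1167 in the knockout. It rose by 1.36 ± 0.23 on the log2 scale (SE; adjusted p = 0.000801), a ratio of means of 2.63. Frzb, a secreted relative of the Frizzled receptors that binds Wnts, stood at 7.34, 12.3 and 14.6 in wild-type and at 24.6, 29.6 and 44.2 in the knockout. It rested on 6 to 46 reads a library (log2 difference 1.45 ± 0.53 SE; adjusted p = 0.0467). The Frzb call was lost when any 1 library was left out (adjusted p = 0.0511 to 0.173). Sfrp2, another such binding protein, stood at 23.3, 13.6 and 23.3 in wild-type and at 1.89, 1.48 and 5.77 in the knockout, from 54 and 10 reads in all. It was lower (log2 difference -2.49 ± 0.74 SE; adjusted p = 0.0184), and leaving out knockout replicate 1 ended the call (adjusted p = 0.0522). Sfrp2 passed the filter on the wild-type libraries alone, so its direction was fixed beforehand and the p-value is no support for it. Without any 1 wild-type library it was too low to test.

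Sfrp1 was the inhibitor with the highest level per kilobase in both groups, 579 ± 411 in the wild-type group and 378 ± 41 after deletion (SD, n = 3). It stood at 1116, 4554 and 1928 normalized counts in wild-type replicates 1, 2 and 3 and at 1556, 1543 and 1859 in the knockout. The knockout libraries were alike and lay inside the wide wild-type range. Sfrp1 was not called (log2 difference -0.38 ± 0.39 SE, 95% interval -1.24 to 0.48; adjusted p = 0.462). It was called lower without wild-type replicate 1 (log2 difference -0.85; adjusted p = 0.0334) and higher against wild-type replicate 1 alone (0.56; adjusted p = 0.0306), so its direction depends on the wild-type libraries used. Wif1, a secreted Wnt-binding protein, stood at 14.7, 22.2 and 19.4 in wild-type and at 23.6, 30.3 and 26.0 in the knockout. Its groups did not overlap, but it was not called (0.49 ± 0.47 SE; adjusted p = 0.426). Sfrp5 was at 33.0 to 49.0 in wild-type and 17.3 to 52.5 in the knockout, and Dkk2 at 11.7 to 12.3 and 7.39 to 20.2, with no call for either gene (adjusted p = 0.705 and 0.842). Dkk1, Dkk4 and Sfrp4 were too low to test, at no more than 14.7 in any library.

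The 3 wild-type libraries differed among themselves in a subset of these genes. Rspo1, Sfrp1, Wnt3a, Wnt6 and Wnt7b exceeded wild-type replicate 1 by at least 3 times in replicate 2 and by at least 1.5 times in replicate 3. Of these 5 only Sfrp1 and Wnt7b passed the filter, and 1428 of all 17432 tested genes (8.19%) had the same pattern. Markers of several cell types had it as well: the squamous markers Krt5, Krt14, Krt15, Krt13 and Krt17, the neuron and glia markers Sox10 and Tubb3, and the myeloid marker Itgam. Krt5 stood at 220, 3219 and 1068 in wild-type and at 76.5, 57.6 and 51.9 in the knockout, and Krt14 at 113, 2177 and 790 and at 17.0, 61.3 and 29.8. Tubb3 stood at 264, 3413 and 1199 in wild-type and at 55.7, 92.3 and 115 in the knockout. Of 12 squamous markers tested, 5 were lower (Krt5, Krt14, Krt15, Krt6a and Krt17), 2 were higher (Sprr1a and Ivl) and 5 were not called, and none was at 0 in all libraries. Their summed level was 941 to 9902 in wild-type and 4849 to 14610 in the knockout. The share of reads on processed pseudogenes was 0.144%, 1.07% and 0.53% in wild-type replicates 1, 2 and 3 and 0.104% to 0.118% in the knockout. The part of this library pattern in the results was not tested. With wild-type replicate 1 alone as the reference, 10 Wnt genes were higher and 3 lower. Of all genes in that fit 36.1% were called, 20.2% higher and 15.9% lower. The lone wild-type library is there given the spread seen among the knockout libraries. That fit also drops genes that passed the filter on the wild-type libraries alone, Sfrp2 and Wnt3 among them. They could not be counted as lower there.

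**Figure D4:**
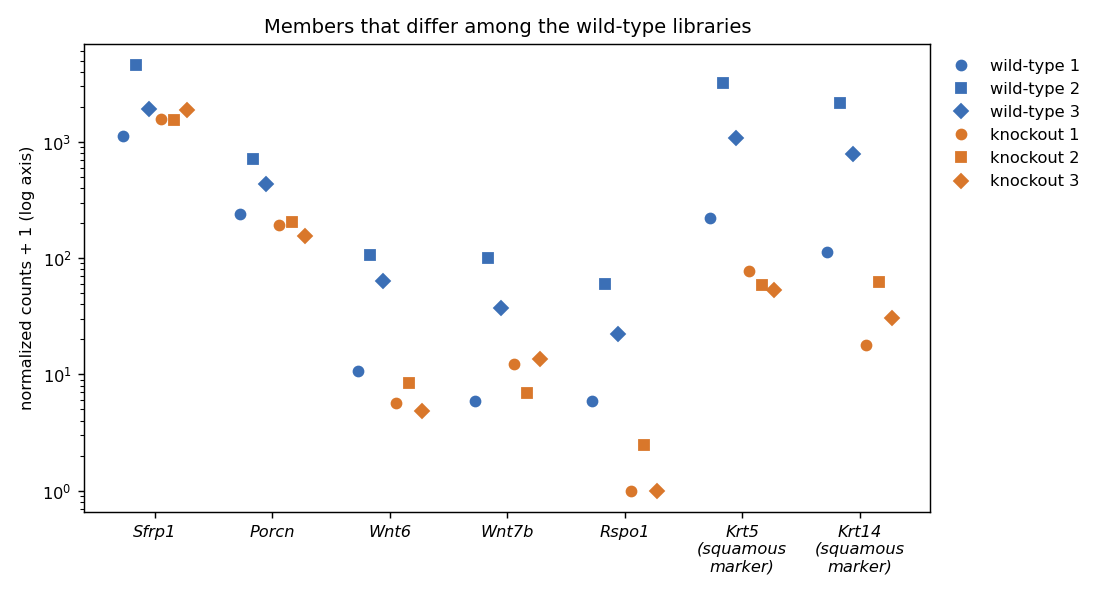
Normalized counts + 1 (log axis) of Sfrp1, Porcn, Wnt6, Wnt7b, Rspo1 and the squamous markers Krt5 and Krt14 in each library, wild-type in blue and knockout in orange, with a symbol for each replicate. In all 7 genes wild-type replicate 2 is the highest library and replicate 3 lies between it and replicate 1.

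Genes that act around these ligands and receptors were read from a list of 61, of which 59 were tested. Of these, 15 were higher, 10 were lower and 34 were not called, with a median log2 difference of 0.07. Of all genes tested 44.7% were called, 23.3% higher and 21.5% lower, so these pathway genes were called about as often as genes in general, and the counts by list below are to be read against the same shares. Notum and Lgr6 were too low. Among 5 genes of Wnt secretion and ligand processing 2 were lower and none higher. Wls, the carrier that takes Wnts to the surface, stood at 2375, 3082 and 2520 in wild-type and at 1189, 1463 and 1370 in the knockout (log2 difference -0.98 ± 0.15 SE; adjusted p = 0.000469). The other was the glypican gene Gpc3 (-0.92; adjusted p = 0.0407), whose call was lost without wild-type replicate 1 or 3 or without knockout replicate 1 or 2 (adjusted p = 0.0534 to 0.145). Porcn and Wls, which act in turn on every secreted Wnt, were thus both lower. The Porcn call did not hold without wild-type replicate 3 or without knockout replicate 3. The Wls call held when any 1 library was left out.

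Among 13 genes of receptor turnover and R-spondin receptors 5 were higher and 2 lower. Kremen2, which works with Dickkopf proteins on LRP5 and LRP6, stood at 29.4, 28.4 and 26.2 in wild-type and at 141, 97.5 and 56.7 in the knockout (1.68 ± 0.41 SE; adjusted p = 0.00656). Kremen1 rose by 0.72 and the polarity gene Vangl1 by 0.99 on the log2 scale. The other 2 that were higher were Ryk, given above, and the R-spondin receptor gene Lgr4, which stood at 5472, 4579 and 4527 in wild-type and at 6202, 6404 and 7013 in the knockout (0.43 ± 0.14 SE; adjusted p = 0.0275). The Lgr4 call was kept without wild-type replicate 1 and lost without any other single library (adjusted p = 0.0605 to 0.109). The polarity genes Prickle1 and Celsr1 fell by 0.84 and fell by 0.63 on the log2 scale. Lgr5, a stem cell R-spondin receptor, stood at 97.9, 85.2 and 86.4 in wild-type and at 66.1, 56.1 and 63.4 in the knockout and was not called (adjusted p = 0.169). Nor were Znrf3 and Rnf43, the ubiquitin ligases that remove Frizzled receptors (log2 difference -0.03 and 0.23).

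Of 25 cytoplasmic and nuclear genes 5 were higher (Pygo2, Axin1, Apc, Daam1 and Gsk3a, by log2 differences of 0.41 to 0.82) and 4 lower. Tle2, a co-repressor gene, stood at 442, 667 and 688 in wild-type and at 117, 100 and 58.6 in the knockout (-2.72 ± 0.29 SE). Tcf7l1, a repressive TCF gene, stood at 348, 1057 and 511 in wild-type and at 116, 155 and 191 in the knockout (-1.92 ± 0.36 SE). In the authors' deposited table its adjusted p was 0.0896. Amer1, a scaffold gene of the beta-catenin destruction complex, stood at 1014, 659 and 981 and at 382, 483 and 381 (-1.07 ± 0.20 SE). The fourth was Dvl1, at -0.46. The beta-catenin gene Ctnnb1 was not called (0.48 ± 0.20 SE; adjusted p = 0.0677). Calls were lost without 1 library for Daam1 (knockout replicate 3, adjusted p = 0.0553), Dvl1 (knockout replicate 2 or 3, adjusted p = 0.0897 and 0.0563) and Gsk3a (wild-type replicate 3 or any knockout replicate, adjusted p = 0.0667 to 0.153).

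Of 16 feedback and target genes 5 were higher, 2 were lower and 9 were not called. Ephb2, a receptor gene of cell sorting in glands, stood at 319, 294 and 251 in wild-type and at 2636, 2468 and 2857 in the knockout (3.20 ± 0.15 SE). Cd44, a hyaluronan receptor gene, stood at 426, 614 and 578 in wild-type and at 3872, 2964 and 3356 in the knockout (2.66 ± 0.17 SE). Both sets of knockout libraries lay more than 4-fold above the highest wild-type library. Ccnd1, a cyclin gene, rose by 1.34 ± 0.18. Axin2, the most used readout of canonical signalling, stood at 127, 163 and 126 in wild-type and at 214, 256 and 285 in the knockout (0.85 ± 0.23 SE; adjusted p = 0.0115), and leaving out knockout replicate 3 ended the call (adjusted p = 0.0574). Ascl2, a stem cell factor gene, stood at 24.5, 7.41 and 14.6 in wild-type and at 63.3, 56.9 and 26.9 in the knockout (adjusted p = 0.0357), a call lost without wild-type replicate 2 or 3 or knockout replicate 1 or 2 (adjusted p = 0.0734 to 0.140). Ephb3, the relative of Ephb2, fell by 0.87 on the log2 scale. Sox9 stood at 4282, 10257 and 4739 in wild-type and at 2046, 2409 and 2239 in the knockout (-1.41 ± 0.28 SE). In the authors' deposited table the adjusted p of Sox9 was 0.135. Called target genes thus went both ways. Several of these genes, Ccnd1 and Cd44 among them, are also known to answer to other signals.

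**Figure D5:**
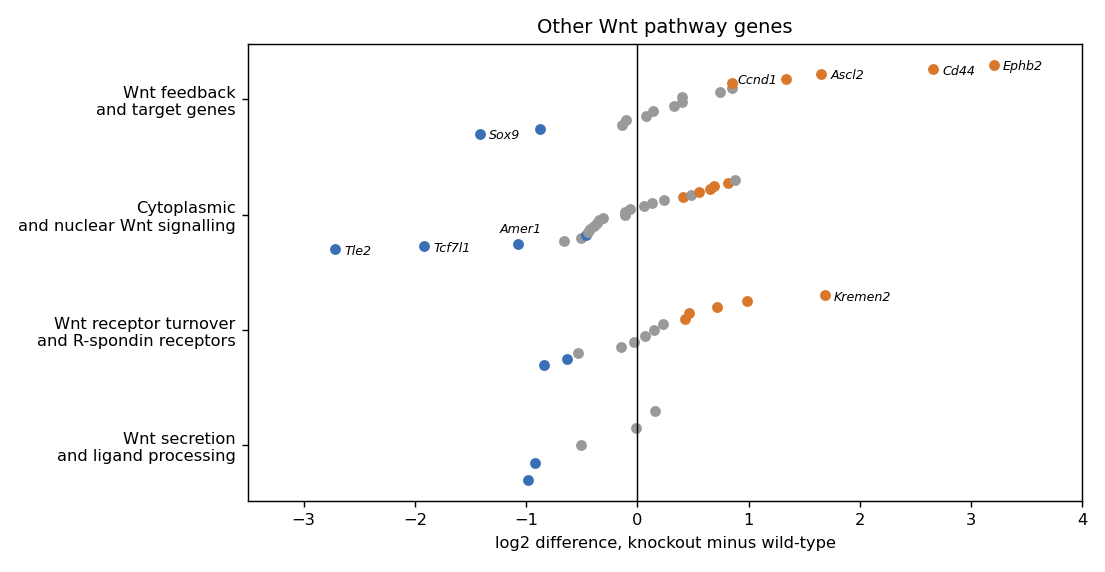
Log2 difference (knockout minus wild-type) of the 59 tested other Wnt pathway genes by list, each point a gene, orange where called higher by limma, blue where called lower and grey where not called. Ephb2 at 3.20 and Cd44 at 2.66 stand highest and Tle2 at -2.72 lowest.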

How the data were processed

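RNA of the corpus gland neck was measured in 3 wild-type and 3 knockout libraries. The authors deposited normalized counts (a signal at or above 0) and a table of their own comparison with group means, a fold change (a ratio) and adjusted p-values by a method not given in the sources used here. STAR, featureCounts, DESeq and mm10 are named, per the submitters' processing notes, without roles or versions. The strand setting is not given, so reads of 7 members that share exon bases with a gene on the opposite strand cannot be assigned with certainty: Fzd5, Fzd6, Rspo3, Sfrp2, Wnt11, Wnt5a and Wnt7b.

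Every deposited normalized count was a whole multiple of its library's value of 1 read, within 0.05 reads for 100% of values. No per-sample column was left unused. In 27 rows a date replaces the symbol. Libraries of a group differed by more than counting noise, so none was treated as a repeat deposit of another. That does not show separate animals.

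The main test was limma 3.58.1 in R 4.3.3 (lmFit, eBayes with a mean trend) on log2(normalized count + 1). Its two-sided p-values were adjusted by Benjamini-Hochberg across the 17432 genes that reached 10 in 3 or more libraries. The log2 scale with 1 added understates the change of low genes. An exact permutation test of 3 against 3 cannot go below p = 0.1. Levels per kilobase used GENCODE vM21 exon lengths, in which all 48 symbols were found (92.0% of all rows), and coordinates are from the same release. Alternatives changed the pseudocount, filter, scaling, variance model, libraries and test. edgeR 4.0.16 and DESeq2 1.42.0 ran on the recovered reads, and edgeR called 8047 genes. The procedure was also run on simulated data. Few genes were changed there and no library pattern was built in, so that run does not carry over to these data. The members, lists and tests were chosen with earlier results of these data known. All called members were named with values, then the most abundant of the others in each role and the other pathway genes called at 2-fold or more. Further genes of short counts, and Lgr5, Znrf3, Rnf43, Ctnnb1, Foxl1 and Kdr, were named after their values were seen. The result of a marker list is not reported here.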

Additional observations from a re-analysis of the deposited data

How the results depend on the processing

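Of the 15 called Wnt genes 11 had the same call in every alternative in which they were tested, apart from the 2-fold threshold, and none changed direction. The filter drops some genes in some alternatives: 12 of the 15 were tested in all 20, and 10 of these were called throughout. Frzb, Porcn, Ror1 and Sfrp2 lost it at least once. The Frzb call was lost in 11 of 19 alternatives, among them DESeq2 (adjusted p = 0.0835) and limma with array weights (adjusted p = 0.0761). In the authors' deposited table Frzb had an adjusted p of 0.209, Porcn of 0.184 and Sfrp2 of 0.0608. After quantile normalization Ror1 had 0.0993 and Sfrp2 0.0572. Quantile normalization moved the median of all genes from -0.02 to 0.10.

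Without wild-type replicates 2 and 3 the log2 difference was -0.39 for Porcn and -1.10 for Ror1, against -1.21 and -1.28 in the main test. Sfrp2, which passed the filter on the wild-type libraries alone, was not tested there. Under a 2-fold threshold, which drops smaller changes by design, the other pathway genes numbered 5 higher and 4 lower, against 15 and 10. In the authors' deposited table they numbered 6 lower, with Sox9 and Tcf7l1 among the calls lost. Against wild-type replicate 1 alone Kremen1 (adjusted p = 0.0516) and Axin1 (adjusted p = 0.0646) lost theirs. Apart from that threshold and the filter, the cause of these changes was not tested. With 1 library left out, 8 to 9 Wnt genes were higher and 4 to 7 lower. Of the other pathway genes 10 to 16 were higher and 8 to 12 lower. Over all genes the calls then ranged from 6082 of 16993 tested without knockout replicate 1 to 7882 of 16697 without wild-type replicate 1. Sfrp2 and Wnt3 were not tested where a wild-type library was left out, since they passed the filter on the wild-type libraries alone.

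Reversals touched only genes with no call, and their cause was not tested. After quantile normalization the log2 difference was 0.16 for Fzd8, 0.19 for Fzd9, -0.11 for Lrp6 and 0.36 for Sfrp5, and with array weights it was 0.0156 for Sfrp5. With DESeq2 Lrp6 was at -0.000405. With 1 library left out Dkk2 ranged from -0.0899 to 0.58, Fzd1 from -0.33 to 0.0578, Fzd10 from -0.0375 to 0.35, Fzd8 from -0.30 to 0.0355 and Fzd9 from -0.74 to 0.0814. Lrp6 ranged from -0.0499 to 0.14, Sfrp1 from -0.85 to 0.17 and Sfrp5 from -0.53 to 0.24. Without wild-type replicates 2 and 3 Fzd10 was at -0.19, Fzd9 at 0.29, Lrp6 at -0.18 and Sfrp1 at 0.56. Wnt4 was called lower with a minimum of 50 (limma adjusted p = 0.0424) and Wnt7b with DESeq2 (adjusted p = 0.0267). Wnt3 was called lower with no mean trend (limma adjusted p = 0.0214).

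The replicate numbers showed no pairing of the samples. Deviations from the group means correlated by -0.00366, 0.0214 and -0.173 for numbers 1, 2 and 3, and each wild-type library was closest to a knockout library of another number. Under the replicate block 8 Wnt genes were higher and 7 lower, with Frzb no longer called (limma adjusted p = 0.0776) and Wnt4 called (adjusted p = 0.0454). In the same fit 14 other pathway genes were higher and 10 lower. Of all 17432 genes tested there, 3726 were higher and 3626 lower. The filter left 15 genes too low to test. Among tested genes with few reads the SE was 0.89 for Rspo3 and 0.74 for Sfrp2.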
